A study of Mus musculus with 6 samples.

Results

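Sugar metabolism was followed through 40 genes of glycolysis, lactate export, pyruvate entry into mitochondria, the pentose phosphate pathway and glycogen. They were listed by GENCODE vM21 mouse symbol and matched to the Ensembl identifiers of the count tables. All 40 are among the 46078 genes of the tables, and all 40 passed the low-count filter that kept 18097 genes. Total RNA from mice was sequenced in 6 libraries, 3 with the genotype label juvenile myelomonocytic leukemia (JMML), a childhood blood cancer with excess monocytic and granulocytic cells, and 3 labelled wild type (WT). The series title describes a mouse model of leukemia tied to fetal blood formation. The labels give no tissue, age, strain, altered gene, promoter or treatment, so what the groups share in these respects is not known here. The question that the design poses is which transcripts differ between case and control.

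Libraries held between 91976512 and 108395459 counts in JMML and between 47096464 and 61656272 in WT. Sample names carry a letter, F for JMML replicates 1 and 2 and M for the remaining 4, and Xist, an X-inactivation transcript of females, was counted 54449 and 49961 times in that pair against at most 36 times elsewhere. JMML replicate 3 and WT replicate 3 have a name prefix in common. Nothing in the labels says that replicates are separate animals, and p-values then measure only the spread between these libraries. Levels are CPM, counts scaled to a common library size by TMM, and are listed in the order of replicates 1, 2 and 3. Fold changes are log2 values, JMML minus WT, with their standard errors (SE). A gene was called at a Benjamini-Hochberg adjusted p under 0.05 over all genes tested in edgeR's quasi-likelihood test.

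Glycolysis splits glucose into pyruvate in the cytosol. Its upper part spends ATP to trap and phosphorylate the sugar, and its lower part returns ATP and NADH. Lactate dehydrogenase turns pyruvate into lactate and regenerates NAD+, and monocarboxylate transporters move lactate across the cell membrane with a proton. Pyruvate can instead enter mitochondria and be converted to acetyl-CoA. The pentose phosphate pathway branches off at glucose 6-phosphate and yields NADPH and ribose, and myeloid cells use that NADPH for the oxidative burst and for lipid synthesis. Several steps are served by more than one gene, and these isoforms differ in affinity, regulation and tissue.

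Most enzymes of the main glycolytic path and all 4 pentose phosphate genes were higher in JMML. Of the 40 genes, 25 were called higher, against 12.4% of all tested genes, and 5 were called lower, against 13.8% (26.2% in either direction). The 25 make up 62.5% of the list and the 5 make up 12.5%, near the share of all genes. The members were chosen with earlier results of these data known, so these shares describe the list and are no independent test. In 27 genes every JMML library lay above every WT library (22.9% of all tested genes), in 5 every JMML library lay below (24.6%, and 47.5% for either), and in 8 the groups overlapped. The median log2 fold change of the 40 was 0.66, against −0.02 over all tested genes. Together the 40 genes took 1.11% ± 0.0846 of all counts in JMML and 0.68% ± 0.0303 in WT (SD, n = 3 per group). Of the 25 called higher, 12 differed by at least 2-fold, as did 2 of the 5 called lower. Cell type markers differed in the same libraries. Of 10 monocyte and macrophage markers 8 were higher, and all 10 B cell, 8 T cell and 8 platelet markers were lower. Their part in the results was not tested, and in bulk RNA fewer cells of a type and less RNA per cell cannot be told apart.

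**Figure D1:**
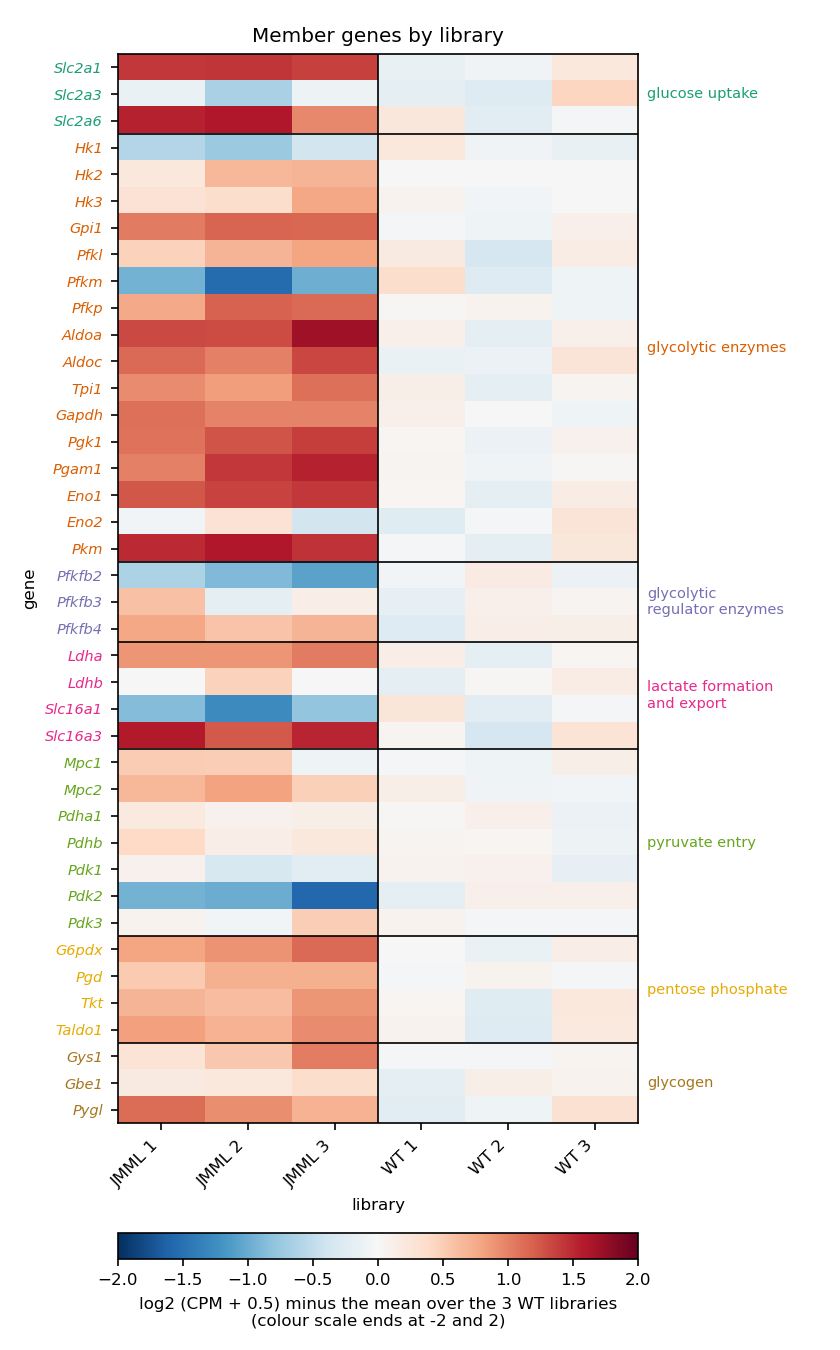
Level of each of the 40 genes (rows, grouped by branch) in each of the 6 libraries (columns), as log2 (CPM + 0.5) minus the mean of the 3 WT libraries, red for higher and blue for lower. The columns of the 3 JMML libraries are red over most of the glycolytic and pentose phosphate rows and blue for Hk1, Pfkm, Pfkfb2, Slc16a1 and Pdk2.

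**Figure D2:**
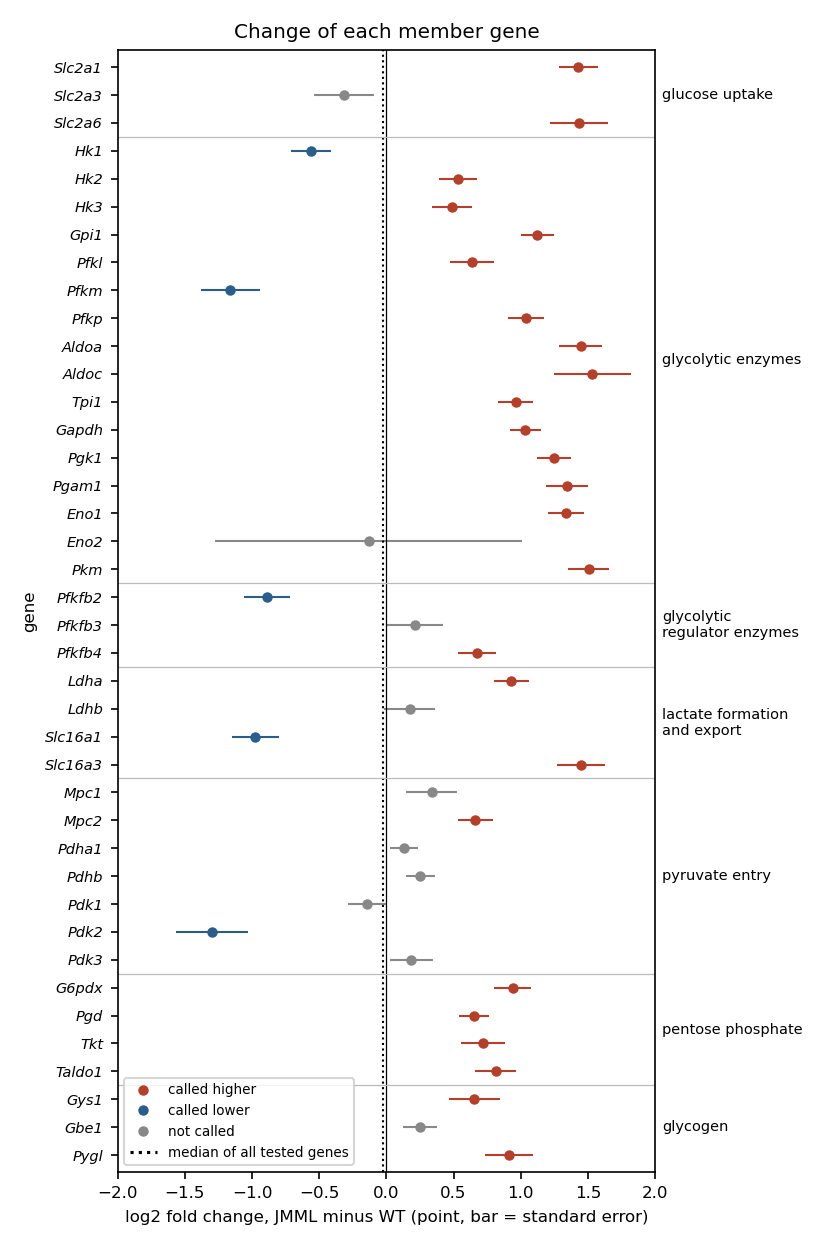
Log2 fold change of each gene, JMML minus WT, with its standard error as a bar, coloured by whether the gene was called higher, lower or not called. The dotted line is the median of all tested genes (−0.02), 5 of the 7 pyruvate entry genes are uncalled, and Aldoc reaches 1.53.

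Over the 25 genes called higher, the median log2 difference from the WT mean was 0.95, 0.93 and 1.03 in JMML, and 0.033, −0.11 and 0.095 in WT, a description of genes chosen by this contrast. JMML replicate 3 held the highest of the 6 values in 14 of these genes, and WT replicate 2, the shallowest library, held the lowest in 17. Without WT replicate 2 the calls fell to 18 higher and 3 lower. The 5 calls in the lower direction became 2 with the identifier letter as a covariate and 2 among the 4 libraries with M. With library totals alone as scaling, 27.00% of all calls were higher in place of 47.4%, the median of all genes shifted by −0.18, and 21 of the 40 genes were higher with a median of 0.48, which is 0.69 above the median of all genes, against 0.68 with TMM.

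Of the 3 glucose transporter genes, 2 were higher and 1 was not called. Slc2a1 encodes GLUT1, the carrier for basal glucose uptake of most cells (GRCm38 chromosome 4, 119108711 to 119137983). It had 36.3, 36.5 and 34.9 CPM in JMML against 11.95, 12.6 and 15.5 CPM in WT. The JMML libraries lay within a narrow band and far above WT (log2 fold change 1.43 ± 0.14 SE, adjusted p = 0.00234). Slc2a6, a lysosomal hexose transporter of macrophages, had 30.1, 31.3 and 20.01 CPM in JMML against 11.8, 8.60 and 9.80 CPM in WT (log2 fold change 1.43 ± 0.22 SE, adjusted p = 0.00553). JMML replicate 3 was the lowest of its group there but still above every WT library. Slc2a3, the high-affinity carrier GLUT3, had 87.8, 61.2 and 89.5 CPM in JMML against 85.2, 80.9 and 131 CPM in WT. These groups overlapped, with WT replicate 3 the highest (log2 fold change −0.32 ± 0.23 SE, adjusted p = 0.327). Scaled to exon length, Slc2a1 made up 34.6% ± 1.97 in JMML and 18.7% ± 1.70 in WT of the summed level of the 3 transporter genes, and Slc2a3 made up 36.96% ± 6.96 in JMML and 65.7% ± 4.40 in WT. The shares of the 2 genes did not overlap between groups. All exact permutation tests of 3 against 3 libraries in this report are two-sided and cannot go below 0.10. Both shares reached that p, and 0.133 after adjustment over 24 shares.

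At the hexokinase step, which phosphorylates glucose and so keeps it in the cell, the 3 genes went different ways. Hk1, the constitutive form bound to mitochondria, had 198, 178 and 232 CPM in JMML against 345, 284 and 269.9 CPM in WT. Every JMML library was below every WT library (log2 fold change −0.56 ± 0.15 SE, adjusted p = 0.031). Hk2, the inducible form, had 106, 145 and 147 CPM in JMML against 91.02, 92.04 and 91.2 CPM in WT (log2 fold change 0.53 ± 0.14 SE, adjusted p = 0.031). Hk3, the form typical of myeloid cells, had 169, 176 and 238 CPM in JMML against 145, 134 and 137 CPM in WT (log2 fold change 0.49 ± 0.15 SE, adjusted p = 0.0482). In these 2 genes every JMML library was above every WT library, with a margin of JMML replicate 1 over WT that is small beside the spread within JMML.

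None of the hexokinase calls held in every alternative. Hk1 lost its call in 10 of 17, among them without JMML replicate 1 (−0.53), JMML replicate 2 (−0.46), WT replicate 1 (−0.40), WT replicate 2 (−0.60) or WT replicate 3 (−0.59), and was −0.37 with the letter as covariate and −0.33 among libraries with M. Hk2 lost it in 8, among them without JMML replicate 2 (0.48), JMML replicate 3 (0.48), WT replicate 1 (0.58), WT replicate 2 (0.54) or WT replicate 3 (0.58). Hk3 lost it in 10, among them without JMML replicate 2 (0.57), JMML replicate 3 (0.34), WT replicate 1 (0.57), WT replicate 2 (0.46) or WT replicate 3 (0.53), was 0.31 with library totals alone, and kept it at 0.78 with the letter. The direction of each of the 3 genes was the same in all 17.

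Per kilobase of exon, Hk3 had the largest mean share of the 3 in both groups. It made up 53.3% ± 2.03 in JMML and 42.8% ± 1.48 in WT of the hexokinase level, while Hk1 made up 24.2% ± 2.22 in JMML and 39.8% ± 2.57 in WT. Neither share overlapped between groups (exact permutation p = 0.1 for each). In CPM not scaled to length, the mean of Hk1 was above that of Hk3 in JMML too (203 ± 27.3 against 194 ± 37.6). The summed hexokinase level was 98.7 ± 15.5 CPM per kilobase in JMML and 88.1 ± 6.05 in WT, and these sums overlapped (exact permutation p = 0.3). Its difference was 0.16 on the log2 scale with TMM and −0.03 with library totals alone.

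Glucose 6-phosphate is next isomerised to fructose 6-phosphate by the product of Gpi1 (GRCm38 chromosome 7, 34201330 to 34230336). Gpi1 had 1147, 1243 and 1237 CPM in JMML against 547, 524 and 597 CPM in WT, a wide gap between the groups with little spread in either group (log2 fold change 1.12 ± 0.12 SE, adjusted p = 0.00276).

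Phosphofructokinase, the committed step of glycolysis, had genes called in both directions. Pfkm, the muscle form (GRCm38 chromosome 15, 98092589 to 98132451), had 33.7, 22.3 and 33.2 CPM in JMML against 83.5, 54.6 and 61.6 CPM in WT. All JMML libraries were lower, replicate 2 the most (log2 fold change −1.16 ± 0.22 SE, adjusted p = 0.0106). Pfkp, the platelet form (GRCm38 chromosome 13, 6579768 to 6648777), had 84.8, 113 and 111 CPM in JMML against 50.6, 52.4 and 47.1 CPM in WT (log2 fold change 1.04 ± 0.13 SE, adjusted p = 0.00376). Pfkl, the liver form, had 98.6, 115 and 124 CPM in JMML against 80.9, 56.7 and 79.2 CPM in WT (log2 fold change 0.64 ± 0.16 SE, adjusted p = 0.0278). Both were higher in every JMML library. The 8 platelet markers were all called lower in the same libraries.

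Pfkm made up 26.6% ± 5.89 in JMML and 57.5% ± 3.35 in WT of the length-scaled phosphofructokinase level, and Pfkl made up 50.4% ± 2.95 in JMML and 31.4% ± 3.16 in WT. Both shares were separate between groups (exact permutation p = 0.1, adjusted p = 0.133 over 24 shares). The difference in the share of Pfkl, 18.97 points, was 7.74 points without length scaling and 10.7 with the longest coding transcript as length, a setting chosen after the data were seen. The sum of the 3 genes was 33.5 ± 2.98 CPM per kilobase in JMML and 34.5 ± 6.10 in WT, with overlapping groups (exact permutation p = 0.9). On the log2 scale the sums differed by −0.033, and by −0.22 with library totals alone (exact permutation p = 0.3). Per kilobase of exon, Pfkm was above Pfkl in each WT library and Pfkl above Pfkm in each JMML library, whereas in CPM not scaled to length Pfkl was also above Pfkm in WT replicates 2 and 3. Pfkm lost its call with the letter as covariate (−1.004) and among libraries with M (−0.97), and Pfkl lost it in 7 of 17 alternatives, among them without JMML replicate 2 (0.64), JMML replicate 3 (0.58) or WT replicate 2 (0.49). Pfkp kept its call in all 17. Exons of Pfkp and Pfkm overlap those of Pitrm1 and Senp1 on the opposite strand, and the strand setting of the counting is not given in the sources used here.

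The bifunctional enzymes of the Pfkfb family make and break fructose 2,6-bisphosphate, the strongest activator of phosphofructokinase. Of the 3 genes 1 was higher, 1 was lower and 1 was not called. Pfkfb2, the form of heart, had 11.7, 9.70 and 8.44 CPM in JMML against 17.7, 20.6 and 16.8 CPM in WT, each JMML library below WT (log2 fold change −0.89 ± 0.17 SE, adjusted p = 0.0116). Pfkfb4 had 59.04, 50.99 and 54.9 CPM in JMML against 28.6, 37.6 and 37.02 CPM in WT, each JMML library above WT (log2 fold change 0.68 ± 0.14 SE, adjusted p = 0.0147). Pfkfb4 lost its call in 3 of 17 alternatives, among them with the letter as covariate (0.67) and among libraries with M (0.71). Pfkfb3, the inducible form with high kinase activity, ranged from 26.6 to 46.02 CPM in JMML and from 27.2 to 32.8 in WT, with JMML replicate 1 above all others (log2 fold change 0.21 ± 0.21 SE, adjusted p = 0.483).

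**Figure D3:**
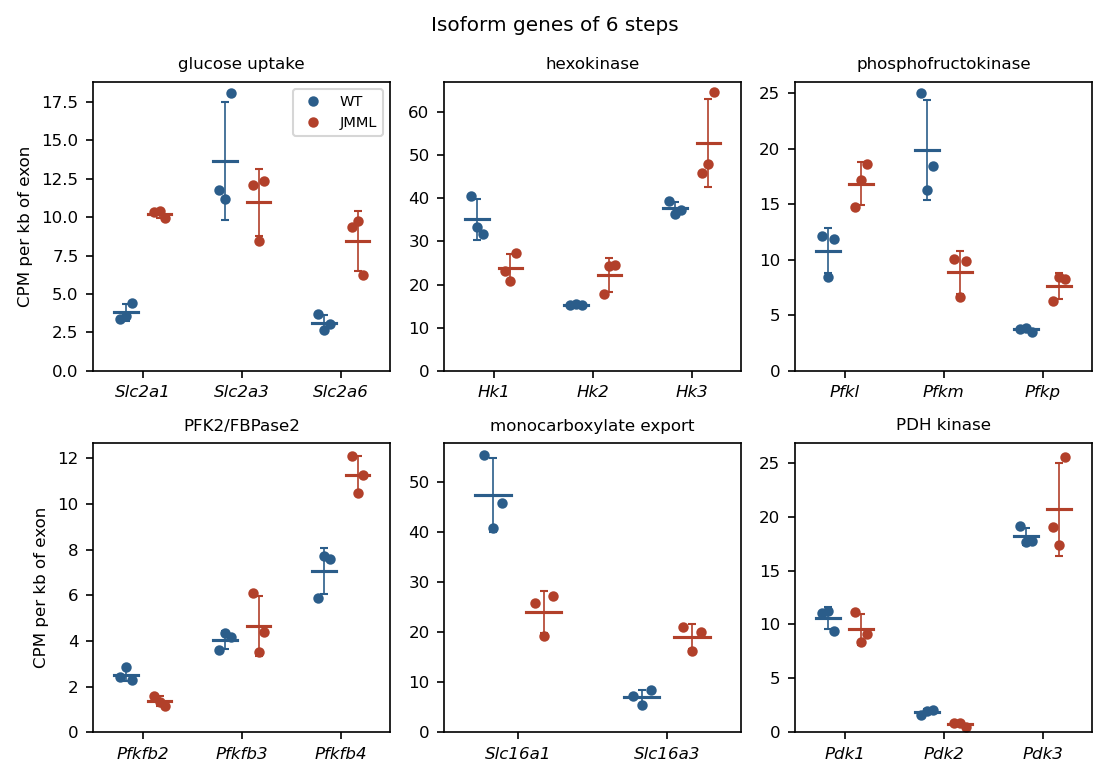
Level of each isoform gene in 6 steps, in CPM per kilobase of exon, with each library as a point, the group mean as a thick line and the SD as a bar (3 libraries a group). Pfkm and Slc16a1 are lower in all 3 JMML libraries while Pfkl, Pfkp and Slc16a3 are higher, and Slc2a3, Pfkfb3, Pdk1 and Pdk3 overlap between groups.

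From aldolase to pyruvate kinase, every step had a gene called higher in JMML. Aldoa, the main aldolase, which cleaves fructose 1,6-bisphosphate, had 761, 751 and 982 CPM in JMML against 327, 265 and 325 CPM in WT (log2 fold change 1.44 ± 0.16 SE, adjusted p = 0.0028). JMML replicate 3 was the highest. Aldoc, the brain form, rose as well, from 0.925 ± 0.227 CPM in WT to 2.68 ± 0.36 in JMML (log2 fold change 1.53 ± 0.29 SE, adjusted p = 0.0102). Per kilobase, Aldoa made up 99.7% of aldolase in JMML and 99.7% in WT. Tpi1, the triose phosphate isomerase, had 313, 289.5 and 347 CPM in JMML against 176, 143 and 168 CPM in WT (log2 fold change 0.96 ± 0.13 SE, adjusted p = 0.0042). Gapdh, which forms NADH from glyceraldehyde 3-phosphate and often serves as a reference gene, had 722, 669.7 and 668 CPM in JMML against 359, 332 and 316 CPM in WT (log2 fold change 1.03 ± 0.12 SE, adjusted p = 0.0028).

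Pgk1, which makes the first ATP of the pathway, had 348, 389.7 and 428 CPM in JMML against 167, 151 and 173 CPM in WT (log2 fold change 1.25 ± 0.12 SE, adjusted p = 0.00231). It lies on the X chromosome, and among the 4 libraries with M its fold change was 1.42. Pgam1, the mutase that follows, had 253, 337 and 369 CPM in JMML against 131, 119.9 and 128 CPM in WT (log2 fold change 1.34 ± 0.16 SE, adjusted p = 0.00305). Eno1, the ubiquitous enolase (GRCm38 chromosome 4, 150236721 to 150248879), had 571, 611 and 642 CPM in JMML against 247, 210.1 and 266 CPM in WT (log2 fold change 1.33 ± 0.13 SE, adjusted p = 0.00228). In each of these 3 genes the lowest JMML library was well above the highest WT library. Eno2, the neuronal enolase, was at most 0.285 CPM in any library and was not called (adjusted p = 0.942).

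Pkm, which makes pyruvate and the second ATP of the pathway (GRCm38 chromosome 9, 59656368 to 59679375), had 1738, 1881 and 1699 CPM in JMML against 609, 543 and 723 CPM in WT. The gap to WT was wide beside the spread in either group (log2 fold change 1.504 ± 0.15 SE, adjusted p = 0.00237). Pkm gives 2 splice forms, M1 and M2, which these counts per gene do not separate. The 9 genes Gpi1, Aldoa, Tpi1, Gapdh, Pgk1, Pgam1, Eno1, Pkm and Aldoc each kept their call in all 17 alternatives. Their log2 fold changes lay between 0.96 and 1.53.

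Several of these genes have many processed copies in the mouse genome, and how reads that fit more than one copy were counted is not given in the sources used here. Copies were defined as other annotated transcripts with at least 95% identity over at least 200 bases outside the gene. Gapdh had 74 such copies in the tables, whose counts summed to between 27.1% and 32.4% of those of Gapdh itself in each library. Pgk1 had 2 copies with 57.96% to 63.7%, and Pgam1 had 1 with 20.1% to 24.8%. These shares overlapped between groups, and with the copies added in an alternative chosen after the data were seen the fold changes were 1.06 for Gapdh, 1.26 for Pgk1 and 1.36 for Pgam1. The share of copies was higher in every JMML library than in every WT library for Eno1 and for Mpc1, the pyruvate carrier gene. For Eno1 the copies had 37.8% to 38.7% of the Eno1 counts in JMML and 15.00% to 16.5% in WT. Eno1b, an intronless copy annotated as coding, was counted 10158, 14360 and 12698 times in JMML and 0 times in every WT library. Another copy of Eno1, Gm4735, had 7630, 10480 and 9374 counts in JMML and 2408, 1646 and 2552 in WT, so its reads were present in both groups. With the copies added, the fold change of Eno1 became 1.59 in place of 1.33.

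Lactate formation and export gave 2 genes higher, 1 lower and 1 not called. Ldha, the muscle-type subunit that favours lactate formation (GRCm38 chromosome 7, 46841475 to 46855627), had 691, 697 and 770.2 CPM in JMML against 414, 333 and 385 CPM in WT (log2 fold change 0.93 ± 0.13 SE, adjusted p = 0.00452). Ldhb, the heart-type subunit, overlapped between groups, at 13.6 ± 2.76 CPM in JMML and 12.1 ± 1.43 in WT (log2 fold change 0.17 ± 0.19 SE, adjusted p = 0.523). Ldha made up 96.1% ± 0.868 in JMML and 93.6% ± 1.12 in WT of the length-scaled lactate dehydrogenase level, a difference of 2.53 points that was 1.27 points without length scaling.

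The monocarboxylate transporter genes changed in opposite directions. Slc16a3 encodes MCT4, a low-affinity carrier typical of cells that export lactate (GRCm38 chromosome 11, 120948480 to 120960868). It had 112, 86.5 and 107 CPM in JMML against 38.2, 29.1 and 44.6 CPM in WT (log2 fold change 1.45 ± 0.18 SE, adjusted p = 0.00355). Slc16a1 encodes MCT1, a carrier of higher affinity that works in either direction (GRCm38 chromosome 3, 104638668 to 104658462). It had 114, 85.3 and 120.2 CPM in JMML against 245, 180.2 and 203 CPM in WT (log2 fold change −0.97 ± 0.17 SE, adjusted p = 0.0087). For each gene all 3 JMML libraries lay on the same side of all 3 WT libraries. Slc16a1 made up 55.6% ± 1.69 in JMML and 87.1% ± 2.20 in WT of the summed length-scaled level of the pair (exact permutation p = 0.1, adjusted p = 0.133 over 24 shares). That sum was 43.2 ± 6.63 CPM per kilobase in JMML and 54.3 ± 8.14 in WT, with overlapping groups (log2 difference −0.33, exact permutation p = 0.3). With library totals alone every JMML sum was below every WT sum (−0.52, exact permutation p = 0.1). Slc16a3 kept its call in all 17 alternatives, and Slc16a1 lost it with the letter as covariate (−0.80) and among libraries with M (−0.77). Red cell precursors also carry MCT1, and 7 of 9 erythroid markers were lower (138 to 431 CPM in JMML and 1095 to 1555 in WT), whose part in the value of Slc16a1 was not tested.

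The 250 bases before the RefSeq start site are shown for a pair of genes that were higher and a pair that were lower, because all 4 hold the letters ACGTG, the core of the element that hypoxia-inducible factors bind and part of the CACGTG box of Myc and related factors. Capitals mark each ACGTG on either strand (CACGT as printed), and overlapping matches form CACGTG. The windows are in GRCm38.p6, chr7:46845554-46845803, strand + for Ldha, chr11:120948817-120949066, strand + for Slc16a3, chr3:104638414-104638663, strand + for Slc16a1 and chr11:95041372-95041621, strand - for Pdk2, and Ldha and Pdk2 each have another start site that is not shown.
Ldha: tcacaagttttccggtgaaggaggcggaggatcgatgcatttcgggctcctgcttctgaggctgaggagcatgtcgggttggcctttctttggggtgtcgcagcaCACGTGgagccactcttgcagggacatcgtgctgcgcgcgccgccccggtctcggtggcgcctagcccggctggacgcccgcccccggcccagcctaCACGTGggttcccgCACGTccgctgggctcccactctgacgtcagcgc
Slc16a3: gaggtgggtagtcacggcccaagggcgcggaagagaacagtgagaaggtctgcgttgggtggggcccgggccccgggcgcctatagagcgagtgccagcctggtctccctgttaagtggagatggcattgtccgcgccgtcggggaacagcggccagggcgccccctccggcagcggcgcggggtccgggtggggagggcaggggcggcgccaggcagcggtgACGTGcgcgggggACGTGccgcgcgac
Slc16a1: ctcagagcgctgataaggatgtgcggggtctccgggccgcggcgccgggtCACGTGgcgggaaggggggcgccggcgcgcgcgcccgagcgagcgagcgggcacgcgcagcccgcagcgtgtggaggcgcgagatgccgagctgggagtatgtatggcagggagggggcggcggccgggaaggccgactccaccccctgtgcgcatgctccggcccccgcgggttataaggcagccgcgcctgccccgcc
Pdk2: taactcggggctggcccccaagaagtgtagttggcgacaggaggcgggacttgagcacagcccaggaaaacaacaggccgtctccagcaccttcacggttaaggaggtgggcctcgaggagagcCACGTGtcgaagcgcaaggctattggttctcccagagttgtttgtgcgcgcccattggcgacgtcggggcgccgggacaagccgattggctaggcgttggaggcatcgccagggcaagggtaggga
Ldha holds 5 matches and Slc16a3 holds 2. Slc16a1 and Pdk2 hold 1 CACGTG each, which reads as a match on both strands. Of the 40 genes, 39 had a RefSeq promoter entry, with 57 windows in all, and 21 windows (36.8%) held ACGTG on either strand, against 16.6% of all 32851 windows. By gene, it was found in 17 of 39 (43.6%), in 10 of the 25 called higher and in 4 of the 5 called lower, against 23.9% of 11591 tested genes with an entry. Genes with more windows have more chances of a match, and the match is a description of letters, not of binding.

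Of the 7 genes for the entry of pyruvate into mitochondria, 1 was higher, 1 was lower and 5 were not called, a share of calls near that of all tested genes (26.2%), with a median log2 fold change of 0.19. Mpc1 and Mpc2 form the mitochondrial pyruvate carrier. Mpc2 had 47.3, 52.1 and 41.4 CPM in JMML against 32.2, 28.2 and 28.6 CPM in WT (log2 fold change 0.66 ± 0.13 SE, adjusted p = 0.0123), each JMML library above WT. It lost its call with the letter as covariate (0.48), among libraries with M (0.52) and on leaving out WT replicate 2 (0.62, adjusted p = 0.0507). Mpc1 had 25.6, 25.3 and 16.8 CPM in JMML against 17.3, 16.8 and 19.5 CPM in WT, with JMML replicate 3 near WT replicate 2 (log2 fold change 0.34 ± 0.19 SE, adjusted p = 0.219). Its processed copy Mpc1-ps, whose aligned 261 bases were identical to it, was counted 1276, 1011 and 832 times in JMML and 367, 260 and 366 times in WT, which is 37.95% to 60.9% of the Mpc1 counts in JMML and 29.6% to 32.7% in WT. With this copy added, the log2 fold change was 0.54 (adjusted p = 0.0696). Pdha1 and Pdhb, the E1 subunits of pyruvate dehydrogenase, had log2 fold changes of 0.13 ± 0.11 and 0.25 ± 0.11 SE (adjusted p = 0.388 and 0.126).

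The pyruvate dehydrogenase kinases switch that complex off by phosphorylation. Pdk2 had 2.88, 2.75 and 1.68 CPM in JMML against 5.15, 6.42 and 6.45 CPM in WT. All JMML libraries were lower, replicate 3 the most (log2 fold change −1.301 ± 0.27 SE, adjusted p = 0.014). Without WT replicate 2 the fold change was −1.26 at an adjusted p of 0.05004. Pdk2 was a minor kinase gene per kilobase, at 2.56% ± 0.927 in JMML and 6.23% ± 0.979 in WT of the summed level of the 3. Pdk1, a known target of hypoxia-inducible factor, had 87.1, 65.5 and 70.7 CPM in JMML against 86.3, 87.3 and 73.1 CPM in WT (log2 fold change −0.14 ± 0.14 SE, adjusted p = 0.467). Pdk3 had 0.19 ± 0.16 SE (adjusted p = 0.412), with JMML replicate 3 at 65.5 CPM above the other 5 libraries, which lay between 44.5 and 48.9. The summed kinase level was 31.00 ± 4.27 CPM per kilobase in JMML and 30.6 ± 1.33 in WT, with overlapping groups.

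All 4 pentose phosphate genes were higher, and in each gene every JMML library lay above every WT library. G6pdx, the entry enzyme and first source of NADPH, had 376, 407 and 479 CPM in JMML against 220.3, 199 and 239 CPM in WT (log2 fold change 0.94 ± 0.14 SE, adjusted p = 0.00502). It is X-linked, and among libraries with M its fold change was 1.16. Its exons overlap those of Ikbkg on the opposite strand. Pgd, the second source of NADPH, had 289, 329 and 328 CPM in JMML against 198, 210.0 and 194 CPM in WT (log2 fold change 0.65 ± 0.11 SE, adjusted p = 0.00728). Both oxidative genes kept their calls in all 17 alternatives.

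In the non-oxidative arm, which links ribose phosphate back to glycolysis, Tkt, the transketolase, had 1416, 1352 and 1619 CPM in JMML against 902, 747 and 1018 CPM in WT (log2 fold change 0.72 ± 0.16 SE, adjusted p = 0.0185). Taldo1, the transaldolase, had 454, 416 and 494 CPM in JMML against 269, 215 and 293 CPM in WT (log2 fold change 0.81 ± 0.15 SE, adjusted p = 0.00984). Tkt lost its call among libraries with M (0.90) and on leaving out WT replicate 1 (0.77) or 2 (0.60), and Taldo1 kept its call in all 17 alternatives. Summed per kilobase, the oxidative pair reached 186 ± 19.7 CPM per kilobase in JMML and 102 ± 5.41 in WT, and the non-oxidative pair reached 408 ± 36.7 CPM per kilobase in JMML and 240.1 ± 36.9 in WT.

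Of the 3 glycogen genes, 2 were higher and 1 was not called. Pygl, the glycogen phosphorylase of liver and leukocytes, had 515, 453 and 385 CPM in JMML against 204, 222 and 293 CPM in WT. Each JMML library lay above WT, with replicate 3 the lowest of them (log2 fold change 0.91 ± 0.18 SE, adjusted p = 0.0118). Gys1, the glycogen synthase outside liver, had 43.7, 52.4 and 73.2 CPM in JMML against 35.4, 35.03 and 37.2 CPM in WT, and here JMML replicate 3 was the highest (log2 fold change 0.65 ± 0.19 SE, adjusted p = 0.0418). Gbe1, the branching enzyme, had 44.5 ± 3.06 CPM in JMML and 37.5 ± 4.02 in WT (log2 fold change 0.25 ± 0.13 SE, adjusted p = 0.183).

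Pygl lost its call with the letter as covariate (0.68), among libraries with M (0.72) and without WT replicate 2 (0.85). Gys1 lost it in 10 of 17 alternatives, among them without JMML replicate 2 (0.72), JMML replicate 3 (0.44), WT replicate 1 (0.69), WT replicate 2 (0.64) or WT replicate 3 (0.72), and was 1.03 with the letter. Exons of Gys1 overlap those of Ruvbl2 on the opposite strand.

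Read as a profile along the pathway, the length-scaled sums per step separated the groups at 17 of 21 steps, with JMML above WT at each of them (exact permutation p = 0.1 for each, adjusted p = 0.124 over 21 steps). With library totals alone, JMML was above WT at 13 steps and below at 1, monocarboxylate export, and 7 overlapped. The steps that no longer separated were PFK2/FBPase2 (0.16, p = 0.4), the mitochondrial pyruvate carrier (0.25, p = 0.4), pyruvate dehydrogenase E1 (−0.015, p = 0.8) and glycogen synthesis (0.27, p = 0.3), as log2 differences with exact permutation p. With TMM, the 4 steps with overlap were hexokinase, phosphofructokinase, monocarboxylate export and the pyruvate dehydrogenase kinases. The ratio of JMML to WT means was highest at pyruvate kinase (2.84), aldolase (2.72), phosphoglycerate mutase (2.53) and enolase (2.52). This order depends on the copies, since with copies added the log2 difference of enolase was 1.60 and that of pyruvate kinase 1.52. Each step also counts only its genes among the 40, and the pyruvate kinase step is Pkm alone. Pklr, a further pyruvate kinase gene outside the 40, was lower (39.9 ± 17.4 CPM in JMML and 97.7 ± 28.0 in WT, log2 fold change −1.29 ± 0.36 SE, adjusted p = 0.0373). Its part in this order was not tested. The ratio of JMML to WT means was 1.44 at glucose uptake (log2 difference 0.54, or 0.36 with library totals alone), 1.86 at lactate dehydrogenase and 1.12 at the E1 subunits of pyruvate dehydrogenase. Slc2a6, the lysosomal transporter, is part of the uptake sum, at 8.45 ± 1.935 CPM per kilobase in JMML and 3.14 ± 0.502 in WT. Slc2a1 and Slc2a3 were at 10.4 and 8.45 CPM per kilobase in JMML replicate 2, against 4.43 and 18.1 in WT replicate 3. Without Slc2a6 the uptake sums of the groups thus overlap. Across the 40 genes, level in WT per kilobase and fold change had a Spearman rho of 0.26 and a Pearson r of 0.23, a description over genes that share the same 6 libraries.

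**Figure D4:**
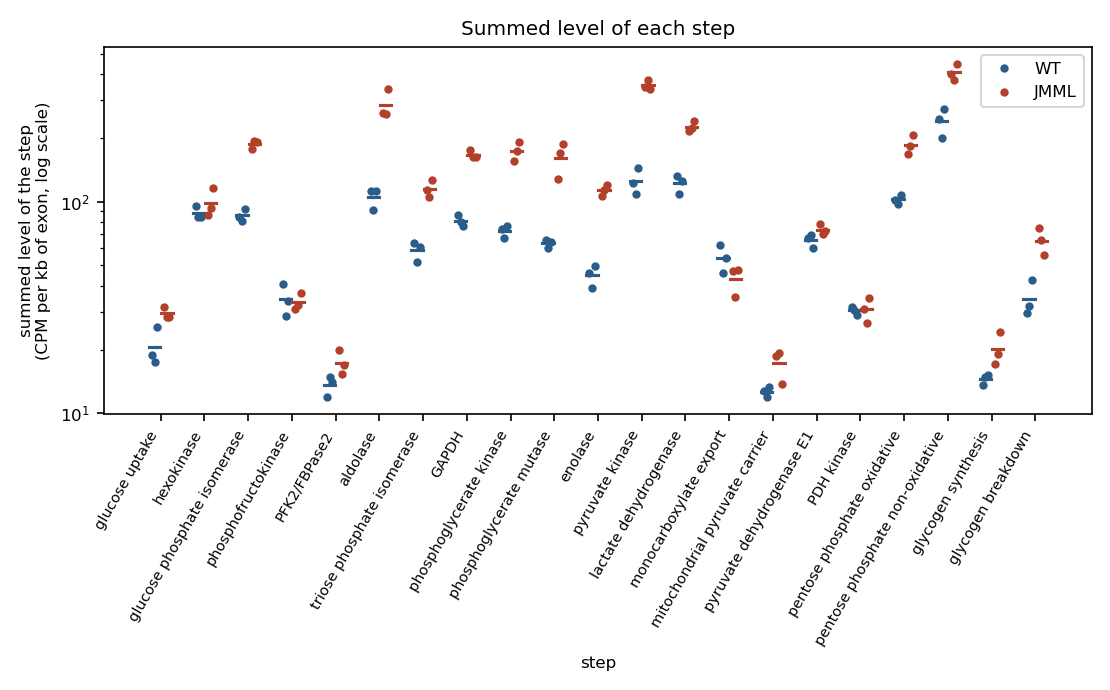
Summed level of each step, in CPM per kilobase of exon on a log axis, in each WT (blue) and JMML (red) library, with group means as lines. The groups are apart from aldolase to lactate dehydrogenase and overlap at hexokinase, phosphofructokinase, monocarboxylate export and the PDH kinases, as scaled by TMM.

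Other genes of the same pathways, listed apart from the 40, were called in both directions. Over all tested genes, 12.4% were called higher and 13.8% lower. Of 15 tested genes of glycolysis and gluconeogenesis, 4 were higher and 5 lower (median log2 fold change −0.097). Tigar, a phosphatase that lowers fructose 2,6-bisphosphate, was higher (19.3 ± 2.82 CPM in JMML and 8.52 ± 1.02 in WT, log2 fold change 1.18 ± 0.17, adjusted p = 0.00502). Slc37a4, the glucose 6-phosphate carrier of the endoplasmic reticulum, which neutrophils need, was also higher (29.4 ± 2.59 CPM in JMML and 17.6 ± 1.08 in WT, log2 fold change 0.74 ± 0.13, adjusted p = 0.0087). Gpd1, the cytosolic glycerol 3-phosphate dehydrogenase, was lower (0.604 ± 0.247 CPM in JMML and 4.05 ± 1.17 in WT, log2 fold change −2.74 ± 0.40, adjusted p = 0.00507). Of 12 other glucose and monocarboxylate carrier genes and their partners, 2 were higher and 2 lower (median −0.48). Emb, the membrane partner of some monocarboxylate transporters, was higher (532 ± 75.6 CPM in JMML and 217 ± 20.6 in WT, log2 fold change 1.297 ± 0.15, adjusted p = 0.00288). Bsg, the other partner gene of that list, was not called (132 ± 32.4 CPM in JMML and 174 ± 12.3 in WT, log2 fold change −0.40 ± 0.18, adjusted p = 0.138). Slc16a10, an aromatic amino acid carrier of the same family, was lower (66.5 ± 0.73 CPM in JMML and 103 ± 12.5 in WT, log2 fold change −0.63 ± 0.11, adjusted p = 0.00922). Slc2a4, the insulin-responsive carrier GLUT4, was also lower, at 0.756, 0.0571 and 0 CPM in JMML against 6.12, 4.22 and 6.48 CPM in WT (adjusted p = 0.0349). Of 7 other pyruvate dehydrogenase genes, 1 was higher and 0 were lower (median 0.16), and of 9 other pentose phosphate genes, 1 was higher and 0 were lower (median 0.10). The latter was H6pd, which makes NADPH inside the endoplasmic reticulum (134 ± 26.5 CPM in JMML and 78.8 ± 7.01 in WT, log2 fold change 0.77 ± 0.16, adjusted p = 0.0146).

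Of 18 other glycogen genes, 3 were higher and 2 lower (median 0.20). The shares over all tested genes were 12.4% higher and 13.8% lower. Gyg, the primer of glycogen chains, was at 120.5 ± 3.16 CPM in JMML and 64.3 ± 2.64 in WT, log2 fold change 0.91 ± 0.092, adjusted p = 0.00237. Pgm1 and Ugp2, which make the glucose donor for glycogen, had log2 fold changes of 0.996 ± 0.11 and 0.85 ± 0.14 SE (adjusted p = 0.00288 and 0.00698). Phka1, a regulatory subunit of phosphorylase kinase, was lower (4.09 ± 0.489 CPM in JMML and 7.73 ± 1.66 in WT, log2 fold change −0.92 ± 0.22, adjusted p = 0.0237). Of 16 tricarboxylic acid cycle genes, 5 were higher and 0 lower, with a median log2 fold change of 0.24. Among 15 genes that regulate glycolytic genes, 4 were higher and 4 lower (median 0.25). Egln3, an oxygen-sensing hydroxylase, had 18.7 ± 1.65 CPM in JMML and 8.35 ± 1.33 in WT, log2 fold change 1.17 ± 0.17, adjusted p = 0.00501. Vhl, the ligase subunit that marks hypoxia-inducible factors for decay, had 47.8 ± 2.33 CPM in JMML and 27.4 ± 1.92 in WT, log2 fold change 0.80 ± 0.11, adjusted p = 0.00477. Epas1, the endothelial hypoxia-inducible factor, was lower (2.58 ± 1.53 CPM in JMML and 24.2 ± 5.95 in WT, log2 fold change −3.23 ± 0.52, adjusted p = 0.00664). Myc was lower too (40.5 ± 3.61 CPM in JMML and 81.9 ± 16.2 in WT, log2 fold change −1.02 ± 0.17, adjusted p = 0.0069). So was Mycn (1.36 ± 0.437 CPM in JMML and 4.05 ± 0.688 in WT, log2 fold change −1.57 ± 0.31, adjusted p = 0.0125). Hif1a was not called (90.9 ± 8.31 CPM in JMML and 73.4 ± 5.82 in WT, log2 fold change 0.31 ± 0.11, adjusted p = 0.0829).

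Among the markers, of monocyte and macrophage markers, 8 of 10 were higher and 0 lower, with a summed level of 6316 to 10623 CPM in JMML and 3663 to 4703 in WT. Of neutrophil markers, 3 of 10 were higher and 0 lower (12262 to 14823 CPM in JMML and 7737 to 12210.4 in WT), and of dendritic cell markers, 5 of 8 were higher and 1 lower (182 to 203 CPM in JMML and 92.3 to 107 in WT). All 10 B cell markers were lower (13.7 to 20.7 CPM in JMML and 124 to 487 in WT), as were all 8 T cell markers (12.2 to 19.1 CPM in JMML and 40.6 to 65.98 in WT) and all 8 platelet markers (13.2 to 27.6 CPM in JMML and 242 to 783 in WT). Of erythroid markers, 7 of 9 were lower (138 to 431 CPM in JMML and 1095 to 1555 in WT), and of endothelial and stromal markers, 7 of 8 (979.7 to 1468 CPM in JMML and 922 to 2851 in WT). Most of the endothelial and stromal sum was Col1a1, the marker not called (1198 ± 240 CPM in JMML and 1178 ± 856 in WT), so the sum says little of the 7 lower ones. No marker was at 0 counts throughout a group. Among all tested genes, 12.4% were called higher and 13.8% lower. Markers of cell division gave 1 of 10 lower and 0 higher (5053 to 6132 CPM in JMML and 5864 to 6410.1 in WT). The lower one was Mki67 (1893 ± 17.7 CPM in JMML and 2591 ± 84.5 in WT, log2 fold change −0.45 ± 0.13, adjusted p = 0.0377).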

How the data were processed

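A TruSeq kit for stranded total RNA was used, per the labels' protocols. The authors deposited whole-number counts for each Ensembl gene, not normalized. The submitters' processing notes name build GRCm38, StringTie 1.3.3b, DESeq2 1.22.2, STAR 2.5.3a, R 3.5.0, Picard 2.0.1 and bcl2fastq 2.18.0.12. The counting tool, its strand setting, its annotation and its handling of multi-mapped reads were not given in the sources used here. Between 51.6% and 58.8% of counts of 1 to 20 were even, and whether the mates of a pair were counted separately is not known. Symbols, positions and exon lengths came from GENCODE vM21, which matched 45229 of 46078 identifiers.

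The members and lists were chosen with earlier results of these data known. The test was edgeR 4.0.16 in R 4.3.3 (filterByExpr, TMM, quasi-likelihood F test, Benjamini-Hochberg over 18097 genes). SE is the absolute log2 fold change over the square root of F. Shares and sums per step used CPM per kilobase of the union of exons and two-sided exact permutation tests. All 40 members are named, with at most the 4 genes of smallest p of each of 16 other lists. Pklr, Hif1a, Myc, Mycn, Bsg and Col1a1 were named besides these, after the data were seen. Copies were found with BLAST 2.17.0, and promoters are RefSeq's (GRCm38.p6). The test was checked on simulated counts. The 17 alternatives covered scaling, test, filter, block, identifier letter, depth, gene length and left-out libraries. DESeq2 1.42.0 and limma 3.58.1 served as other tests. Adding the copies to their genes, and the longest coding transcript as length, were chosen after the data were seen.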

Additional observations from a re-analysis of the deposited data

Results flagged for a closer look

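Eno1b, a near-identical copy of Eno1 outside the 40 genes, was counted 10158, 14360 and 12698 times in the JMML libraries and 0 times in each of the 3 WT libraries, which drew attention as a signal that the control libraries lacked. It aligned to the Eno1 transcript at 99.5% identity over 1736 bases. Of all 46078 genes, Eno1b was the only one with at least 1000 counts in every JMML library and 0 in every WT library, and 0 genes had the opposite pattern. How reads that fit both genes were assigned is not given in the sources used here, and the part of that assignment in the 0 counts was not tested.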

How the results depend on the processing

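Of the 30 called members, 18 kept their call in all 17 alternatives and 0 reversed. All genes called higher and lower, 2245 and 2492, became 1358 and 1451 with the replicate block, 969 and 1250 with the letter as covariate, and 1012 and 1298 among libraries with M, and 1280 were higher with library totals alone. Leaving out 1 library gave between 1050 and 1955 higher and between 1153 and 2048 lower. Members called higher lay between 20 and 25 in the other settings, except 18 without WT replicate 2; the lower ones, 5, became 2 with the letter and 2 with M alone, and lay between 3 and 5 with 1 library left out. With the replicate block, 20 members were higher and 4 lower, and Pfkfb4 was at 0.68 (adjusted p = 0.0513). Same-numbered libraries had correlations of −0.20, 0.05 and −0.14 between their deviations from the group means. Libraries of unlike number had between −0.096 and 0.23. With 3 libraries a group these deviations are tied to each other, so the values cannot tell whether the numbers pair the libraries. The median of the members, 0.66, was 0.48 with library totals alone, 0.74 with all genes kept, also 0.74 under the letter and 0.78 for M alone. Uncalled values changed sign for Pfkfb3 (−0.013 without JMML replicate 1, between −0.013 and 0.40 with 1 library left out), Ldhb (−0.00486 with library totals, −0.00582 with the letter), Mpc1 (−0.086 and −0.049 with the letter and M alone) and Pdha1 (−0.058 with library totals). Eno2 also changed sign. With 1 library left out it lay between −0.54 and 0.66, at 0.46 without JMML replicate 3 and 0.66 without WT replicate 3. It was not tested without JMML replicate 2. Over all alternatives that tested it, the lowest value of Eno2 was −6.53. With library totals the log2 difference of the sums became −0.0291 for hexokinase, −0.015 for pyruvate dehydrogenase E1 and −0.176 for its kinases, and the share of Aldoa differed by 0.0102 points without WT replicate 1 (−0.0178 in the main setting; between −0.0454 and 0.0102 with 1 library left out). The cause of these changes was not tested. Eno2, at most 0.285 CPM, was the only member left untested by the filter of 50 counts and by thinning to the smallest total, whereas Aldoc and Pdk2 kept their calls after thinning.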

Other observations

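The longer box CACGTG was unevenly spread over the members, a pattern chosen after the promoters were seen. It was found before a RefSeq start site of Pfkm, Pfkfb2, Slc16a1 and Pdk2, which are 4 of the 5 genes called lower, and of 1 of the 25 called higher, Ldha, which holds it in 2 places. Among the 9 uncalled genes with an entry, Pfkfb3 had it. Of all 11591 tested genes with an entry, 9.40% had it. Pfkm has 4 start sites in the table, Pfkfb2 has 3 and Pdk2 has 2, which gives these genes more windows than the 1 of Slc16a1.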
